A study of Mus with 96 samples.

Results

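Levels of mRNA were followed for 8 genes linked to glucocorticoids in the liver, and the data used here hold no measure of the hormone itself. The genes, taken from the count table by gene symbol, included the receptor gene Nr3c1 and the hormone-activating enzyme gene Hsd11b1. The others were the hormone-responsive genes Fkbp5, Tsc22d3, Sgk1, Ddit4, Mt1, and Mt2. These 8 are among the 55487 genes in the table, and all 8 were among the 15548 genes with enough counts to be tested. The questions were at what level and at what time of day each gene was transcribed by genotype and diet, and whether their 24-hour rhythms were still found in livers without BMAL1 in hepatocytes.

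Corticosterone, the main glucocorticoid of the mouse, is released in a daily wave that in nocturnal animals peaks around the onset of activity. In the liver it binds the glucocorticoid receptor, encoded by Nr3c1, which is held by heat shock protein chaperones until the hormone binds and then moves to the nucleus and activates or represses genes. HSD11B1 regenerates active corticosterone from its inactive 11-keto form inside the cell. FKBP5 is a co-chaperone that lowers the receptor's affinity for the hormone, so its induction forms a feedback loop. TSC22D3, also called GILZ, is a leucine zipper protein that carries part of the anti-inflammatory action of the hormone. SGK1 is a kinase that regulates ion transport, DDIT4 (also called REDD1) inhibits mTORC1, and the metallothioneins MT1 and MT2 bind zinc and other metals. Sgk1, Ddit4, and the metallothionein genes are also known to answer to other signals, among them insulin, energy or amino acid stress, and zinc.

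In the mouse assembly GRCm38.p6, Fkbp5 (ENSMUSG00000024222) lies on chromosome 17 from 28398753 to 28486149 and Tsc22d3 (ENSMUSG00000031431) on chromosome X from 140539528 to 140600522. Sgk1 (ENSMUSG00000019970) and Ddit4 (ENSMUSG00000020108) are both on chromosome 10, from 21882184 to 21999903 and from 59949675 to 59951770. Hsd11b1 (ENSMUSG00000016194) lies on chromosome 1 from 193221640 to 193264045, and Nr3c1 (ENSMUSG00000024431) is on chromosome 18. Mt2 (ENSMUSG00000031762, 94172618 to 94173567) and Mt1 (ENSMUSG00000031765, 94178883 to 94180327) are neighbours on chromosome 8, with 5315 bases between them. They are paralogs, and reads that both could share may have been counted on either or on neither.

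Liver RNA of 96 C57BL/6J mice was read by BRB-seq, a bulk method that barcodes each sample and counts reads from the 3′ end of each mRNA. Hep-Bmal1KO mice carried Bmal1 flx/flx and Alb-Cre, so that Cre under the albumin promoter deleted Bmal1 in hepatocytes while other liver cells kept it, and Hep-Bmal1WT mice were Cre-negative littermates that also carried Bmal1 flx/flx. Mice aged 8 to 10 weeks at the start received normal chow (NC) or high-fat chow lacking choline (cdHFD) for 2 weeks. Each of the 24 combinations of genotype, diet, and zeitgeber time (ZT 2, 6, 10, 14, 18, and 22, with lights on at ZT0 and off at ZT12) held 4 mice, 2 male and 2 female except for 3 males and 1 female in Hep-Bmal1WT on cdHFD at ZT14. Levels are in CPM, read counts scaled to a common library size after TMM normalization, and n is 4 mice at each time or 24 mice per genotype and diet.

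The libraries held 1861740 to 9718615 reads on genes. The targeted gene, listed as Arntl, averaged 0.748 to 20.2 CPM over the ZTs in livers labelled Hep-Bmal1WT on NC and 5.74 to 9.83 CPM in livers labelled Hep-Bmal1KO, and its 3′ reads do not show whether the floxed part was removed. On 10 clock genes and 20 other genes that separate the labels, 7 of the 96 libraries lay nearer the other genotype than their own label, 4 on NC (ZT6, ZT10, and ZT18) and 3 on cdHFD (ZT10 and ZT14). All genotype names below are the labels, no library was moved, and results are given with and without these 7 where a call or a value of the 8 genes changed with them. The sex labels matched Xist and Y-linked genes in 95 of 96 libraries, the exception being replicate 4 of Hep-Bmal1KO on cdHFD at ZT10, labelled female, with 0.405 CPM of Xist and 0.608 CPM of Y-linked genes. The labels give library names made of a letter from A to H and a number from 1 to 12. Each number went with a single genotype and diet and with only some of the ZTs. What the number stands for therefore cannot be told apart from genotype or diet, nor fully from time of day. Of the males, 44 of 49 had the letters A, B, E, or F, while 43 of 47 females had C, D, G, or H.

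**Figure D1:**
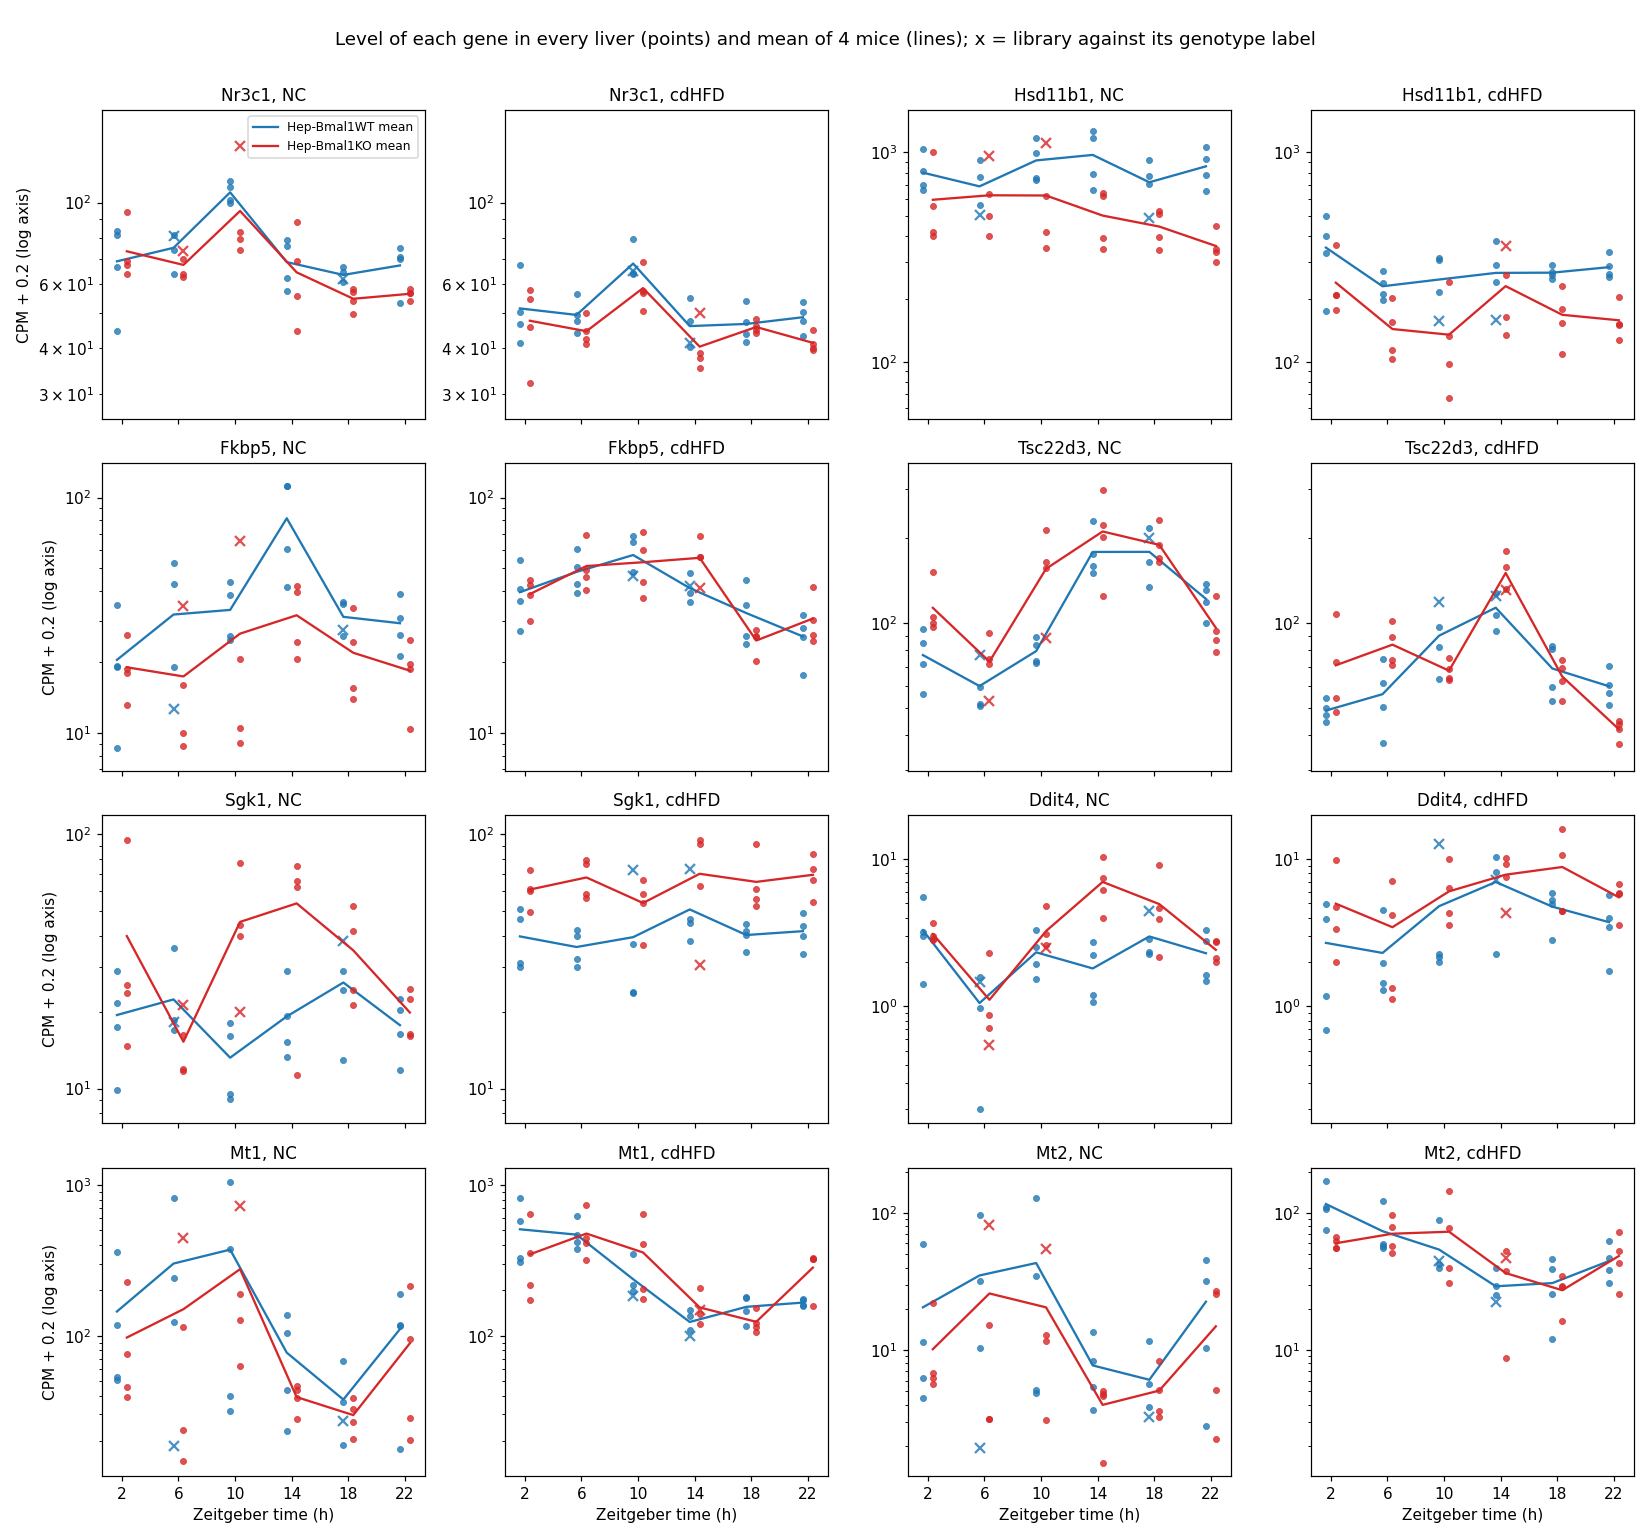
Level of the 8 genes in every liver against ZT in hours (points, CPM + 0.2 on a log axis, with the same axis for both diets of a gene), with Hep-Bmal1WT in blue, Hep-Bmal1KO in red, lines through the mean of 4 mice, and crosses for the 7 libraries nearer the other genotype than their label. Tsc22d3 rose and fell over the day in each genotype and diet, the mean of Mt1 was lowest at ZT14 or ZT18 in each genotype and diet, and Hsd11b1 was lower on cdHFD than on NC.

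Of the hormone-responsive genes, Fkbp5, Tsc22d3, and Mt1 carried the clearest 24-hour rhythms, and Tsc22d3 was called rhythmic in all 4 groups. A rhythm was called where a 24-hour sinusoid, tested with edgeR's quasi-likelihood F test, gave a Benjamini-Hochberg adjusted p under 0.05 over the 15548 genes. High and low times set side by side below were picked from these same data. Livers that do not overlap at such times describe the profile and are no test of a rhythm. In Hep-Bmal1WT on NC, 4 of the 8 genes were called (Fkbp5, Tsc22d3, Mt1, and Nr3c1), where 18.7% of all genes tested were called. In Hep-Bmal1KO on NC, 2 of the 8 were called (Tsc22d3 and Ddit4), where 4.34% of all genes were. On cdHFD, 4 of 8 were called in Hep-Bmal1WT (Fkbp5, Tsc22d3, Mt1, and Mt2; 14.3% of all genes) and 3 of 8 in Hep-Bmal1KO (Fkbp5, Tsc22d3, and Mt1; 3.81% of all genes). A rhythm that differed between the genotypes was called for 0 of the 8 genes on NC (0.386% of all genes) and for 0 of the 8 on cdHFD (0.431% of all genes), with 1 unadjusted p under 0.05 on NC, that of Tsc22d3, and none on cdHFD in edgeR's test.

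Nr3c1, the receptor gene itself, varied with a small amplitude. In Hep-Bmal1WT on NC its 4 livers had 99.5, 102, 114, and 110.4 CPM at ZT10, the time of its highest mean, and 66.5, 64.5, 60.6, and 61.5 CPM at ZT18. Every liver at ZT10 lay above every liver at ZT18, and the rhythm was called (edgeR adjusted p = 0.025), with a fitted amplitude of 0.27 (SE 0.08) on the log2 scale and a peak at 9.14 h (SE 1.17). In Hep-Bmal1KO on NC the fitted amplitude was 0.28 (SE 0.08) and the peak 8.02 h (SE 1.11), while the rhythm did not pass (edgeR adjusted p = 0.066). The same 2 times gave 73.9, 82.98, 143, and 79.3 CPM and 49.4, 53.7, 56.9, and 57.8 CPM there, again with no overlap, and the highest of them, 143 CPM, came from one of the libraries against its label. On cdHFD the highest means were at ZT10 too, 68 ± 7.50 CPM in Hep-Bmal1WT and 58.2 ± 7.48 CPM in Hep-Bmal1KO (SD, n = 4), and neither rhythm was called (edgeR adjusted p = 0.17 and 0.42).

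Hsd11b1, which sets how much active hormone the cell itself makes, was not called rhythmic in any of the 4 groups but differed strongly in level. On NC it spanned 485 to 1271 CPM, with a median of 779, over 24 livers of Hep-Bmal1WT, and 301 to 1104 CPM, with a median of 431, over 24 livers of Hep-Bmal1KO. On cdHFD the ranges were 157 to 497 CPM, with a median of 265, and 66.8 to 363 CPM, with a median of 159.6. The genotypes overlapped on both diets, and on NC the highest Hep-Bmal1KO liver, at 1104 CPM, was one of the libraries against its label. On NC no library was against its label at ZT2, ZT14, or ZT22. At ZT22 the livers did not overlap, with 651, 785, 1066, and 933 CPM in Hep-Bmal1WT and 301, 336, 348, and 446 CPM in Hep-Bmal1KO, nor did they at ZT14. At ZT2 they overlapped, with 660, 697, 812, and 1035 CPM in Hep-Bmal1WT and 416, 399, 554, and 1009 CPM in Hep-Bmal1KO.

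Fkbp5 had its sharpest peak in Hep-Bmal1WT on NC. The 4 livers at ZT14, 2 hours after lights-off, had 60.02, 41.4, 112, and 112 CPM, and those at ZT2 had 8.40, 18.8, 19, and 34.6 CPM. The lowest liver at ZT14 exceeded the highest at ZT2, and the ratio of the highest to the lowest mean over the day was 4.03. The fitted amplitude was 0.69 (SE 0.19) with a peak at 13.98 h (SE 1.05) (edgeR adjusted p = 0.0088). Livers of Hep-Bmal1KO on NC at ZT14 had 24.1, 20.3, 41.8, and 39.3 CPM and those at ZT6, its lowest time, 9.82, 8.59, 15.8, and 34.4 CPM. These 2 times overlapped only through the 34.4 CPM of a library against its label. The rhythm was not called in Hep-Bmal1KO on NC (edgeR adjusted p = 0.38), with a fitted amplitude of 0.32 (SE 0.19). The amplitude in Hep-Bmal1KO was 0.465 (95% interval 0.125 to 1.72) times that in Hep-Bmal1WT, an interval that holds both a strong loss and no loss, and the rhythms were not shown to differ (edgeR adjusted p = 0.93). At ZT14 the males had 60.0 and 41.4 CPM in Hep-Bmal1WT against 24.1 and 20.3 CPM in Hep-Bmal1KO, and the females 112 and 112 CPM against 41.8 and 39.3 CPM, so that the genotypes did not overlap within either sex at that time.

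On cdHFD the Fkbp5 rhythm was found in both genotypes and its fitted peak was in the light phase. In Hep-Bmal1WT the livers at ZT10 had 64.3, 68.6, 46.3, and 47.9 CPM and those at ZT22 27.6, 31.5, 17.4, and 25.5 CPM, with no overlap. In Hep-Bmal1KO the livers at ZT14 had 41.2, 55.4, 68.7, and 55.6 CPM and those at ZT18 25.3, 19.99, 25.6, and 27.01 CPM, again with no overlap. The cosine fits placed the peaks together, at 8.93 h (SE 0.724) in Hep-Bmal1WT (amplitude 0.49 (SE 0.09), edgeR adjusted p = 4.7e-04) and at 8.98 h (SE 0.689) in Hep-Bmal1KO (amplitude 0.51 (SE 0.09), edgeR adjusted p = 0.0039). The peak time differed between the genotypes by 0.0442 h (95% interval -1.97 to 2.06), and the amplitude ratio was 1.05 (95% interval 0.619 to 1.78). The call in Hep-Bmal1KO did not pass without replicate 1 (edgeR adjusted p = 0.074) or in females alone (0.44). A single cosine described the profile in Hep-Bmal1KO coarsely, since the means stayed at 50.9 ± 12.6 CPM, 52.9 ± 15.4 CPM, and 55.2 ± 11.2 CPM from ZT6 to ZT14 and were 24.5 ± 3.08 CPM at ZT18 (SD, n = 4).

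Tsc22d3 was the most regular of the genes, and on NC it was low at ZT6 and high after lights-off. In Hep-Bmal1WT on NC the livers had 51.5, 76.8, 50.7, and 59.2 CPM at ZT6, 159, 150.3, 175, and 231 CPM at ZT14, and 165, 134, 217, and 199.9 CPM at ZT18. Those of Hep-Bmal1KO had 74.2, 92.5, 71.7, and 52.9 CPM at ZT6, 157, 214, 88.05, and 164 CPM at ZT10, and 297, 125, 223, and 202 CPM at ZT14. At ZT10 the genotypes were apart but for the 88.05 CPM of a Hep-Bmal1KO library against its label, since the highest Hep-Bmal1WT liver had 89.2 CPM and the other Hep-Bmal1KO livers 157 CPM or more. The rhythm was called in both genotypes (edgeR adjusted p = 2.5e-07 and 0.0055), with amplitudes of 0.83 (SE 0.11) in Hep-Bmal1WT and 0.66 (SE 0.11) in Hep-Bmal1KO and an amplitude ratio of 0.789 (95% interval 0.520 to 1.20). The fitted peak was at 17.2 h (SE 0.488) in Hep-Bmal1WT and 15.2 h (SE 0.618) in Hep-Bmal1KO, a difference of -1.97 h (SE 0.788, adjusted p = 0.35) that did not pass the adjustment over the 458 genes rhythmic in both genotypes on NC, of which 0.655% were called for peak time. In edgeR's test of a rhythm that differs by genotype, Tsc22d3 had an unadjusted p of 0.019 and an adjusted p of 0.46. Without the 4 libraries against their label on NC, the adjusted p was 0.074 in edgeR's test and the peak difference -2.72 h (SE 0.78). The Tsc22d3 rhythm in Hep-Bmal1WT on NC passed under every alternative run, while that in Hep-Bmal1KO did not pass without replicate 1 or replicate 4 of each combination (edgeR adjusted p = 0.083 and 0.054) or in females alone (0.12).

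On cdHFD Tsc22d3 was rhythmic in both genotypes at lower levels. In Hep-Bmal1WT the livers at ZT14 had 125, 128, 107, and 93.99 CPM and those at ZT2 44.3, 46.96, 49.8, and 53.9 CPM. In Hep-Bmal1KO the livers at ZT14 had 131, 159, 181, and 132 CPM and those at ZT22 41.8, 44.6, 43.7, and 37.1 CPM. In each genotype every liver at the high time lay above every liver at the low time. Amplitudes were 0.54 (SE 0.11) and 0.52 (SE 0.11) (edgeR adjusted p = 4.3e-05 and 0.027), the amplitude ratio was 0.973 (95% interval 0.525 to 1.80), and the peak in Hep-Bmal1KO differed by -1.86 h (SE 1.17, adjusted p = 0.43). The call in Hep-Bmal1KO on cdHFD did not pass without replicate 2, 3, or 4 (edgeR adjusted p = 0.10, 0.18, and 0.15), while that in Hep-Bmal1WT passed under every alternative run. Peak time by genotype was called for 0 of the 3 genes rhythmic in both genotypes on cdHFD (Fkbp5, Tsc22d3, and Mt1), where it was called for 5.11% of 372 genes.

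Sgk1 was not called rhythmic in any of the 4 groups, and its livers scattered widely in Hep-Bmal1KO on NC. There the 4 livers at ZT14 had 74.7, 11.1, 62, and 65.6 CPM, those at ZT2 94.9, 14.5, 23.5, and 25.5 CPM, and those at ZT6 11.7, 11.5, 16.01, and 21.1 CPM. The range in Hep-Bmal1WT on NC was 8.91 to 37.8 CPM, with a median of 17.97. On cdHFD the ranges were 23.5 to 73.05 CPM, with a median of 39.8, in Hep-Bmal1WT, and 30.4 to 95.02 CPM, with a median of 60.9, in Hep-Bmal1KO. Of the 2 highest Hep-Bmal1WT livers on cdHFD, at 73.05 and 72.5 CPM, both were libraries against their label, as was the lowest Hep-Bmal1KO liver, at 30.4 CPM.

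Ddit4 had few counts, with 1 library of Hep-Bmal1WT on NC at ZT6 holding no count, which allows up to 0.494 CPM (3 counts, counting error only). In Hep-Bmal1KO on NC the livers had 10.2, 3.76, 7.26, and 5.99 CPM at ZT14 and 0.517, 0.678, 2.09, and 0.346 CPM at ZT6, with no overlap. In Hep-Bmal1WT on NC the values at ZT14 were 2.53, 0.871, 2.04, and 0.992 CPM, below every Hep-Bmal1KO liver at that time. The rhythm was called in Hep-Bmal1KO (edgeR adjusted p = 0.025, amplitude 0.58 (SE 0.14), peak 15.9 h (SE 0.909)) and not in Hep-Bmal1WT (edgeR adjusted p = 0.46, amplitude 0.26 (SE 0.14)). The difference between them did not pass (edgeR adjusted p = 0.63), and the call in Hep-Bmal1KO did not pass when any of the 4 replicate numbers was left out (edgeR adjusted p = 0.096 to 0.12). On cdHFD the amplitudes were 0.51 (SE 0.17) in Hep-Bmal1WT and 0.47 (SE 0.17) in Hep-Bmal1KO, and neither rhythm was called (edgeR adjusted p = 0.074 and 0.17).

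The metallothionein genes peaked early in the light phase on cdHFD, ahead of Fkbp5 and Tsc22d3. In Hep-Bmal1WT on cdHFD, Mt1 had 816, 580.5, 309, and 328 CPM at ZT2 and 99.7, 109.7, 136, and 148 CPM at ZT14. In Hep-Bmal1KO on cdHFD it had 413, 442, 319, and 732 CPM at ZT6 and 114, 105, 121, and 153 CPM at ZT18. High and low times did not overlap in either genotype, and both rhythms were called (edgeR adjusted p = 3.5e-07 and 0.0019). The call passed under every alternative run in Hep-Bmal1WT, and in Hep-Bmal1KO it did not pass in males alone (edgeR adjusted p = 0.065). Amplitudes were 1.01 (SE 0.15) and 0.85 (SE 0.15), peaks 4.35 h (SE 0.570) and 4.99 h (SE 0.674), and the amplitude ratio 0.847 (95% interval 0.531 to 1.35). Mt2 on cdHFD had 171, 75.1, 111, and 107 CPM at ZT2 and 22.2, 29.4, 39.5, and 24.98 CPM at ZT14 in Hep-Bmal1WT (amplitude 0.90 (SE 0.17), edgeR adjusted p = 5.6e-05). Its rhythm in Hep-Bmal1KO was at the edge of the threshold (amplitude 0.67 (SE 0.17), edgeR adjusted p = 0.0503), and the 2 genotypes were not shown to differ (edgeR adjusted p = 0.92).

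On NC the metallothionein genes varied so much between livers of the same time that their rhythms depended on the test. In Hep-Bmal1WT, Mt1 had 39.6, 31.6, 376, and 1043 CPM at ZT10 and 36.1, 18.6, 68.2, and 27 CPM at ZT18. In Hep-Bmal1KO it had 63.01, 127, 728, and 188 CPM at ZT10, the highest of them a library against its label, and 20.3, 32.3, 26.7, and 38.7 CPM at ZT18. In Hep-Bmal1WT the livers of these times overlapped, and in Hep-Bmal1KO they did not. The rhythm of Mt1 in Hep-Bmal1WT was called by edgeR (adjusted p = 0.030, amplitude 0.95 (SE 0.42)), while a cosinor F test on the transformed values gave an unadjusted p of 0.14 and JTK_CYCLE 0.15, both over 24 livers. In Hep-Bmal1KO the adjusted p was 0.10 in edgeR's test, and for Mt2 it was 0.13 in Hep-Bmal1WT and 0.19 in Hep-Bmal1KO. The amplitude ratio between the genotypes was 0.870 (95% interval 0.220 to 3.45) for Mt1, too wide an interval to tell a loss from a gain. Without the 4 libraries against their label on NC it was 0.368 (95% interval 0.0518 to 2.61), with amplitudes of 1.19 in Hep-Bmal1WT and 0.44 in Hep-Bmal1KO, and for Mt2 it went from 0.888 to 0.505.

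Over the 8 genes, the fitted amplitude in Hep-Bmal1KO was a median of 0.975 times that in Hep-Bmal1WT on NC, from 0.465 for Fkbp5 to 3.03 for Sgk1. On cdHFD the median was 0.886, from 0.582 for Sgk1 to 1.05 for Fkbp5. The same ratio for 10 core clock genes, which BMAL1 drives directly or through their feedback loops, had a median of 0.425 on NC (0.182 to 0.989) and 0.526 on cdHFD (0.357 to 0.839). For all genes called rhythmic in Hep-Bmal1WT on the other diet, the median was 0.676 on NC (2231 genes) and 0.744 on cdHFD (2907 genes). That set was chosen for a rhythm and the 8 genes were not, so their medians are not like for like. On NC the highest ratios of the 8, those of Sgk1 (3.03), Hsd11b1 (2.88), and Ddit4 (2.21), came from genes not called rhythmic in Hep-Bmal1WT. The ratios of genes with little rhythm in either genotype, such as Sgk1 and Hsd11b1, rest on amplitudes near their standard errors. With the libraries against their label left out, the median over the 8 genes was 0.773 on NC (0.368 to 4.41) and 0.974 on cdHFD (0.504 to 2.34), and the ratio of Hsd11b1 went from 2.88 to 1.47 on NC and from 0.920 to 2.34 on cdHFD. A difference in amplitude was called for 0 of the 8 genes on either diet in the CircaCompare model with adjustment over all genes, which called 0.0193% of all genes on each diet, and the lowest unadjusted p was 0.11 on NC, for Ddit4, and 0.35 on cdHFD, for Mt2. On cdHFD the 95% intervals of the ratio reached down to 0.619 for Fkbp5, 0.525 for Tsc22d3, and 0.531 for Mt1.

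**Figure D2:**
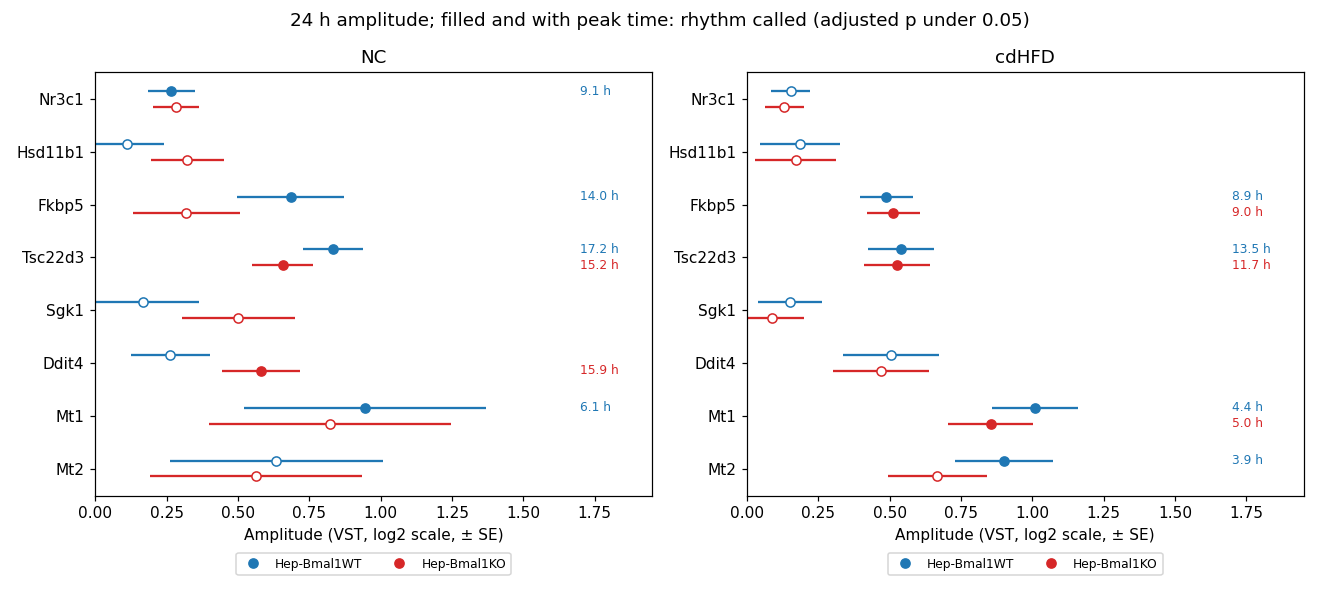
Fitted 24-hour amplitude (log2 scale of variance-stabilized counts, point ± SE over 24 livers) of each gene in Hep-Bmal1WT (blue) and Hep-Bmal1KO (red) on NC (left) and cdHFD (right). Points are filled, and the peak time is printed at the right, where edgeR called the rhythm, which was so for Tsc22d3 in all 4 groups and for Fkbp5 in all but Hep-Bmal1KO on NC.

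The level over the whole day differed by genotype on NC for 3 of the 8 genes, where 12.5% of all genes were called (7.08% higher and 5.45% lower in Hep-Bmal1KO). Fkbp5 was lower in livers labelled Hep-Bmal1KO by a log2 difference of -0.66 (SE 0.19, adjusted p = 0.015), and Hsd11b1 was lower, at -0.68 (SE 0.13, adjusted p = 1.8e-04). Sgk1 was higher, by 0.73 (SE 0.22, adjusted p = 0.019). The call of Hsd11b1 held under every alternative run, that of Fkbp5 did not pass without replicate 1, 2, or 4 (0.075, 0.052, and 0.071), and that of Sgk1 without replicate 1, 2, or 3 (adjusted p = 0.054 to 0.081, edgeR). Tsc22d3, another receptor target, had 0.30 (SE 0.10, adjusted p = 0.052) and Ddit4 0.62 (SE 0.22, adjusted p = 0.059), both just outside the threshold on the side of higher levels. Whether the lower levels of Hsd11b1 and Fkbp5 were related was not tested. These and the following adjusted p-values for levels are from edgeR's quasi-likelihood test with ZT as a factor and 48 libraries per comparison.

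Without the 4 libraries against their label on NC, 7 of the 8 genes passed, all but Nr3c1. Fkbp5 was then at -0.94 (SE 0.17, adjusted p = 5.3e-05), Hsd11b1 at -0.85 (SE 0.11, adjusted p = 1.3e-07), and Sgk1 at 0.82 (SE 0.23, adjusted p = 0.0085). Ddit4 and Tsc22d3 were higher, by 0.76 (SE 0.23, adjusted p = 0.017) and 0.37 (SE 0.11, adjusted p = 0.012). Mt1 and Mt2 were lower, at -1.05 (SE 0.38, adjusted p = 0.047) and -1.32 (SE 0.39, adjusted p = 0.014), against -0.61 (SE 0.37, adjusted p = 0.34) and -0.75 (SE 0.40, adjusted p = 0.25) with all libraries. These 4 libraries were found through differences between the labels, so leaving them out widens such differences in part by construction. With the sexes apart, the log2 difference of Mt1 was -1.37 (SE 0.29, adjusted p = 0.0079) in females and 0.44 (SE 0.37, adjusted p = 0.55) in males, and that of Mt2 -1.58 (SE 0.37, adjusted p = 0.015) in females and 0.58 (SE 0.35, adjusted p = 0.35) in males.

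On cdHFD, 2 of the 8 genes differed by genotype, where 9.67% of all genes were called (4.75% higher and 4.92% lower). Sgk1 was higher by 0.64 (SE 0.11, adjusted p = 3.4e-05) and Hsd11b1 lower, at -0.64 (SE 0.12, adjusted p = 2.5e-04), each in the same direction as on NC. Fkbp5, which differed on NC, had 0.04 (SE 0.09, adjusted p = 0.86). Without the 3 libraries against their label on cdHFD, 4 of 8 passed, the other two being Ddit4, at 0.82 (SE 0.23, adjusted p = 0.0092), and Nr3c1, at -0.18 (SE 0.06, adjusted p = 0.031).

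The genotype difference itself depended on the diet for Fkbp5 alone of the 8 genes, where 3.04% of all genes were called for this interaction. The log2 difference between the diets in the genotype effect was 0.71 (SE 0.21, adjusted p = 0.048) over 96 libraries, and 0.97 (SE 0.20, adjusted p = 4.6e-04) without the 7 libraries against their label. With all libraries the adjusted p did not stay under the threshold when any replicate number was left out (0.079 to 0.19, edgeR). The same term was 0.75 (SE 0.41, adjusted p = 0.36) for Mt1 and -0.08 (SE 0.24, adjusted p = 0.92) for Sgk1, neither of which passed. Of the 5 hepatocyte markers 2 were lower in Hep-Bmal1KO on each diet, with a median log2 difference of -0.01 on NC and 0.04 on cdHFD. Their summed level had a median of 144416 CPM in Hep-Bmal1WT and 93806 CPM in Hep-Bmal1KO on NC, with overlapping ranges. Of the cholangiocyte markers, 1 of 4 on NC (median 0.53) and 2 of 4 on cdHFD (median 0.77) were higher in Hep-Bmal1KO. On cdHFD 3 of 5 stellate cell markers (median 0.25) and 1 of 5 leukocyte markers (median -0.16) were higher, and 1 of 5 Kupffer cell and macrophage markers was lower (median -0.03). Of all genes, 7.08% were higher and 5.45% lower in Hep-Bmal1KO on NC, and 4.75% and 4.92% on cdHFD. The part of these markers in the levels of the 8 genes was not tested.

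**Figure D3:**
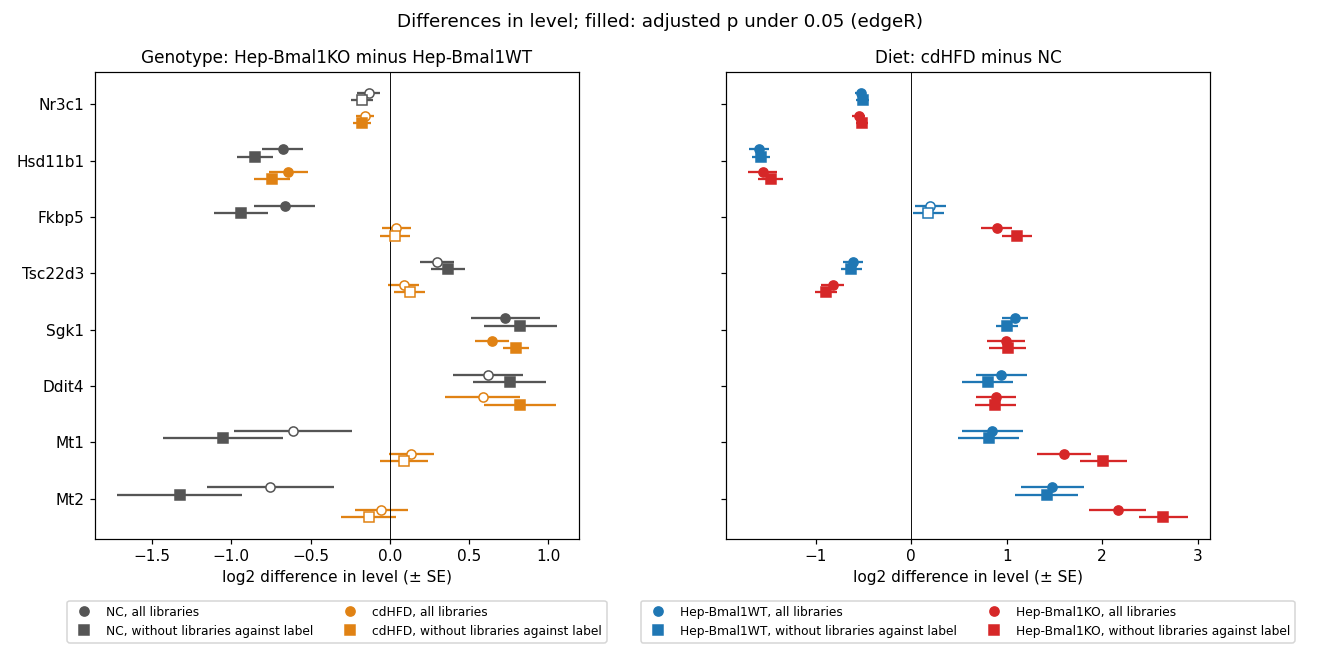
Log2 difference in level (± SE) of each gene between genotypes within each diet (left, Hep-Bmal1KO minus Hep-Bmal1WT) and between diets within each genotype (right, cdHFD minus NC), with all libraries (circles) and without the 7 libraries against their label (squares). Marks are filled where the adjusted p was under 0.05 (edgeR); Hsd11b1 was lower and Sgk1 higher in Hep-Bmal1KO on both diets, and the diet differences reached from -1.60 for Hsd11b1 to 2.16 for Mt2.

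Nearly all 8 genes differed in level between the diets, as did most of the transcriptome. In Hep-Bmal1WT 7 of 8 genes differed between the diets, where 55.7% of all genes were called (28.4% higher and 27.3% lower on cdHFD). In Hep-Bmal1KO 8 of 8 differed, where 62% of all genes were called (32.4% higher and 29.6% lower). Both genes of the hormone's action upstream of the targets fell. Hsd11b1 was lower on cdHFD, at -1.60 (SE 0.11, adjusted p = 2.5e-18) in Hep-Bmal1WT and -1.56 (SE 0.15, adjusted p = 1.1e-12) in Hep-Bmal1KO, which takes the median from 779 to 265 CPM and from 431 to 159.6 CPM. Nr3c1 was lower, at -0.53 (SE 0.06, adjusted p = 1.0e-10) and -0.55 (SE 0.07, adjusted p = 1.7e-09).

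The hormone-responsive genes split by direction. Tsc22d3 was lower on cdHFD, at -0.61 (SE 0.11, adjusted p = 3.5e-06) in Hep-Bmal1WT and -0.83 (SE 0.12, adjusted p = 7.2e-08) in Hep-Bmal1KO. Sgk1 was higher, by 1.08 (SE 0.14, adjusted p = 1.4e-09) and 0.99 (SE 0.19, adjusted p = 1.8e-05), and so was Ddit4, by 0.94 (SE 0.27, adjusted p = 0.0022) and 0.89 (SE 0.21, adjusted p = 3.0e-04). The metallothionein genes were higher in both genotypes, Mt1 by 0.85 (SE 0.32, adjusted p = 0.023) and 1.60 (SE 0.28, adjusted p = 3.1e-06) and Mt2 by 1.48 (SE 0.33, adjusted p = 1.4e-04) and 2.16 (SE 0.30, adjusted p = 1.2e-08). Fkbp5 was higher in Hep-Bmal1KO, by 0.90 (SE 0.16, adjusted p = 4.5e-06), and had 0.20 (SE 0.16, adjusted p = 0.30) in Hep-Bmal1WT. Thus Fkbp5 and Tsc22d3, both known targets of the receptor, had opposite signs on cdHFD in Hep-Bmal1KO.

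The makeup of the liver moved with the diet as well. All 5 hepatocyte markers were lower on cdHFD in both genotypes (median log2 difference -1.08 in Hep-Bmal1WT and -0.86 in Hep-Bmal1KO), and all 5 Kupffer cell and macrophage markers were higher (1.79 and 1.76). Stellate cell markers were higher, 4 of 5 in Hep-Bmal1WT (0.96) and 5 of 5 in Hep-Bmal1KO (1.21), as were 4 and 3 of 5 leukocyte markers (1.11 and 0.99). Of 4 endothelial markers 2 were higher and 1 lower in each genotype. Of 4 cholangiocyte markers 1 was higher in Hep-Bmal1WT and 2 in Hep-Bmal1KO. The summed Kupffer cell and macrophage markers spanned 121 to 256 CPM in Hep-Bmal1WT on NC and 477 to 1086 CPM on cdHFD, without overlap. In bulk tissue fewer cells of a type and less RNA per cell cannot be told apart, and the part of these shifts in the levels of the 8 genes was not tested.

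Fitted peak times also differed between the diets for some of the genes. In Hep-Bmal1WT a rhythm that differed between the diets was called for 2 of the 8 genes, Fkbp5 (edgeR adjusted p = 0.037) and Tsc22d3 (edgeR adjusted p = 2.8e-04), where 6.13% of all genes were called. Without the libraries against their label the adjusted p of Fkbp5 was 0.055. The fitted peak of Fkbp5 on cdHFD differed by -5.04 h (SE 1.37, adjusted p = 0.0026) and that of Tsc22d3 by -3.66 h (SE 0.693, adjusted p = 3.9e-05), both earlier, while Mt1 had -1.79 h (SE 1.83, adjusted p = 0.45). Peak time differed for 40.9% of the 946 genes rhythmic on both diets in Hep-Bmal1WT, so 2 of 3 stood beside a high background. In Hep-Bmal1KO a rhythm that differed by diet was called for 0 of the 8 genes (0.907% of all genes, with 1 member, Tsc22d3, at an unadjusted p under 0.05 in edgeR's test). Fkbp5 passed there without the libraries against their label (edgeR adjusted p = 0.044). Tsc22d3, the 1 gene rhythmic on both diets there, had a peak difference of -3.54 h (SE 1.24, adjusted p = 0.026), where 32% of 100 genes were called. Every ZT of a diet came from its own run of mouse numbers, so a time of day cannot be told apart from such a run.

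Sex was a strong source of spread among livers on NC. Over all 96 libraries, 3 of the 8 genes differed between the sexes, where 17.2% of all genes did. Fkbp5 was higher in females, by 0.42 (SE 0.10, adjusted p = 8.1e-04), as was Hsd11b1, by 0.46 (SE 0.08, adjusted p = 1.9e-06), and Ddit4 was lower, at -0.45 (SE 0.17, adjusted p = 0.045). The comparisons of sex within groups that follow were added after the data had been seen.

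In Hep-Bmal1WT on NC, 4 of 8 genes were higher in females, where 10.9% of all genes differed by sex. Mt1 spanned 17.5 to 122 CPM (median 37.9, n = 12) in males and 27 to 1043 CPM (median 164, n = 12) in females, and Mt2 1.73 to 10.2 CPM (median 4.79, n = 12) in males and 3.08 to 127 CPM (median 31.6, n = 12) in females. The log2 differences were 2.22 (SE 0.37, adjusted p = 8.6e-05) for Mt1, 2.65 (SE 0.36, adjusted p = 3.9e-06) for Mt2, 0.85 (SE 0.15, adjusted p = 1.2e-04) for Fkbp5, and 0.47 (SE 0.10, adjusted p = 9.2e-04) for Hsd11b1, from edgeR's test. Both females lay above both males at 5 of the 6 ZTs for each of these 4 genes. Of the 8 genes, 2 were higher in females of Hep-Bmal1KO on NC, where 8.95% of all genes differed, Fkbp5 by 1.07 (SE 0.19, adjusted p = 2.1e-04) and Hsd11b1 by 0.76 (SE 0.11, adjusted p = 1.4e-05). Mt1 had 0.43 (SE 0.54, adjusted p = 0.73) there, with 14.5 to 228 CPM (median 42.8, n = 12) in males and 19.96 to 728 CPM (median 44.5, n = 12) in females, and the 2 highest of the females were libraries against their label.

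Whether the sex difference itself depended on genotype was tested on NC, where 0.508% of all genes and 0 of the 8 passed. Mt1 and Mt2 had -1.79 (SE 0.72, adjusted p = 0.40) and -2.27 (SE 0.74, adjusted p = 0.20) in edgeR's test, with unadjusted p-values of 0.016 and 0.0035. Without the 4 libraries against their label both passed, at -2.30 (SE 0.58, adjusted p = 0.043) and -3.02 (SE 0.57, adjusted p = 0.0023), the sex difference being smaller in Hep-Bmal1KO.

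On cdHFD, with all libraries, 0 of the 8 genes differed by sex in either genotype by edgeR's test, where 3.61% of all genes differed in Hep-Bmal1WT and 1.67% in Hep-Bmal1KO, and the lowest unadjusted p-values were 0.052, for Fkbp5 in Hep-Bmal1WT, and 0.018, for Ddit4 in Hep-Bmal1KO. Without the libraries against their label 1 of 8 passed, Ddit4 in Hep-Bmal1WT, which was lower in females, at -1.05 (SE 0.27, adjusted p = 0.016) in edgeR's test. Mt1 spanned 99.7 to 416 CPM (median 181, n = 13) in males and 115 to 816 CPM (median 184, n = 11) in females of Hep-Bmal1WT. The sex difference was smaller on cdHFD than on NC for 3 of 8 genes, where 7.91% of all genes passed. The log2 difference between the diets in the effect of sex was -1.01 (SE 0.16, adjusted p = 1.7e-06) for Fkbp5, -1.50 (SE 0.41, adjusted p = 0.011) for Mt1, and -1.75 (SE 0.43, adjusted p = 0.0037) for Mt2. Without the libraries against their label the same 3 terms were -0.88 (SE 0.13, adjusted p = 8.0e-07), -1.16 (SE 0.39, adjusted p = 0.045), and -1.33 (SE 0.41, adjusted p = 0.029). Sex nearly coincided with the letter of the library name. On NC markers of some other liver cells were higher in females too. In Hep-Bmal1WT they were 3 of 5 for Kupffer cells and macrophages, 3 of 5 for stellate cells, and 4 of 4 for endothelial cells (medians 0.38, 0.52, and 0.39). Of the hepatocyte markers 1 of 5 was higher (median 0.11), as were 0 of 4 cholangiocyte markers (median 0.31) and 0 of 5 leukocyte markers (median 0.41). Of all genes, 10.9% differed by sex in this group. In Hep-Bmal1KO on NC, where 8.95% of all genes differed by sex, 4 of 5 Kupffer cell and macrophage markers were higher in females (median 0.46). So were 2 of 4 endothelial markers (median 0.34) and 1 of 5 each for stellate cells, leukocytes, and hepatocytes (medians 0.13, 0.59, and -0.01). Of the cholangiocyte markers there, 1 of 4 was lower. Over both genotypes, the female minus male difference of 4 of the 5 Kupffer cell and macrophage markers was lower on cdHFD than on NC (median -0.51). The same held for 1 of 5 stellate cell and 1 of 5 hepatocyte markers. The part of these markers in the sex differences was not tested.

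**Figure D4:**
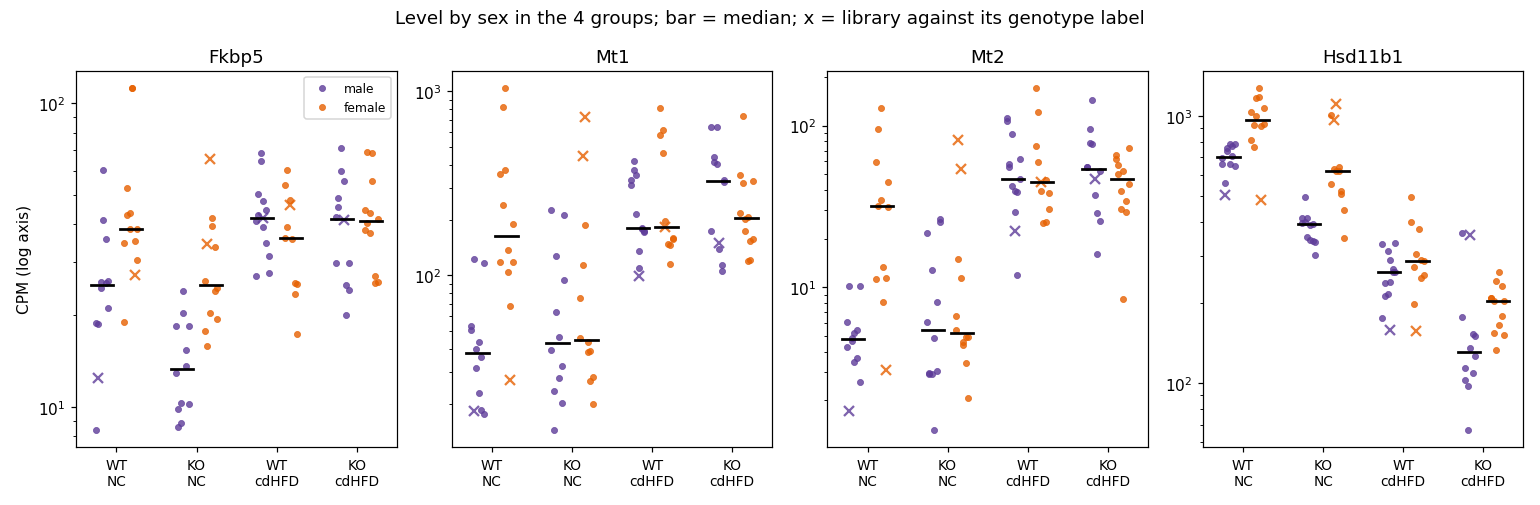
Level of Fkbp5, Mt1, Mt2, and Hsd11b1 in every liver by sex (purple, males; orange, females; CPM on a log axis) in the 4 groups of genotype and diet, with bars for medians and crosses for the libraries against their label. In Hep-Bmal1WT on NC the female median of Mt1 was 163.6 CPM and the male median 37.9 CPM, and on cdHFD they were 184 and 181 CPM.

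Among mice of the same genotype, diet, and ZT, Fkbp5 moved with the metallothioneins and Hsd11b1. After the mean of each combination was subtracted, the correlation over 96 livers with Fkbp5 was r = 0.63 (Spearman's rho 0.59) for Mt1, r = 0.55 (rho 0.44) for Mt2, and r = 0.47 (rho 0.47) for Hsd11b1. For Mt1 the adjusted permutation p was 7e-05 for both coefficients, from the smallest p that the permutations can give. For Mt2 it was 0.00021 for r and 0.001 for rho, and for Hsd11b1 0.00021 for r and 0.00018 for rho, adjusted over 7 pairs with 100000 two-sided permutations within combinations. The correlations were -0.05 for Tsc22d3, -0.08 for Sgk1, -0.20 for Ddit4, and 0.31 for Nr3c1 (adjusted permutation p from 0.059 to 0.72). Without the 2 livers farthest from the median of Fkbp5, both of them Hep-Bmal1KO libraries against their label on NC, r was 0.58 for Mt1, 0.48 for Mt2, and 0.38 for Hsd11b1.

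The relation of Fkbp5 with Mt1 was positive in each group, with r = 0.82 in Hep-Bmal1WT on NC, 0.53 in Hep-Bmal1KO on NC, 0.50 in Hep-Bmal1WT on cdHFD, and 0.47 in Hep-Bmal1KO on cdHFD. For Mt2 the values in the same order were 0.78, 0.46, -0.01, and 0.37. That with Hsd11b1 held within both groups on NC, with r = 0.80 and 0.79, and not on cdHFD, with 0.27 in Hep-Bmal1WT and -0.39 in Hep-Bmal1KO on cdHFD. When the mean of each sex was subtracted too, r fell to 0.49 for Mt1, 0.36 for Mt2, and 0.10 for Hsd11b1 over 95 livers. Without the libraries against their label it was then 0.31, 0.11, and -0.10 over 82 livers.

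Over the 24 means of genotype, diet, and ZT, the genes whose log2 level was most like Fkbp5 by Pearson correlation were Tmc7 (r = 0.90), Arl1 (0.84), Mfsd2a (0.83), Efhd2 (0.83), and Nrg4 (0.81). MFSD2A is a transporter of lysophosphatidylcholine and NRG4 a secreted growth factor. The genes most like Mt1 were Mt2 (r = 0.95), its neighbour, followed by Cpt1a (0.91), Trip6 (0.90), Cd2ap (0.90), and Arhgap45 (0.89). CPT1A admits long-chain fatty acids to the mitochondria. Since the 24 means share the diet and the time of day, these values are a description.

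Other genes known to be induced by glucocorticoids were also called rhythmic in both genotypes, though not all of the same ones. Of 22 such genes, 14 were rhythmic in Hep-Bmal1WT and 9 in Hep-Bmal1KO on NC (18.7% and 4.34% of all genes), of which 6 were called in both and 3, Bcl6, Rhob, and Zbtb16, in Hep-Bmal1KO alone. On cdHFD 10 and 6 were rhythmic (14.3% and 3.81% of all genes), 5 of them in both genotypes. A rhythm that differed by genotype was called for 1 of 22 on NC, the cell cycle inhibitor gene Cdkn1a (edgeR adjusted p = 0.034), whose fitted peak was at 22.9 h in Hep-Bmal1WT and 16.02 h in Hep-Bmal1KO, and for 0 of 22 on cdHFD, where 4 had an unadjusted p under 0.05 in edgeR's test. The next lowest p-values were those of Zbtb16 on NC (unadjusted p = 0.013 in edgeR's test) and Per1 on cdHFD (unadjusted p = 0.025), which did not pass the adjustment. Per1, both a clock gene and a target of the receptor, had amplitudes of 0.997 (SE 0.17) and 0.99 (SE 0.17) on NC. In level, 7 of 22 differed by genotype on NC (12.5% of all genes), 3 higher and 4 lower. The median log2 difference was -0.13 over the list and -0.01 over all genes. The higher genes were Cdkn1a, at 1.45 (SE 0.30, adjusted p = 4.9e-04), Pdk4, at 1.09 (SE 0.28, adjusted p = 0.0048), which restrains pyruvate dehydrogenase, and the glucose-6-phosphatase gene G6pc, at 0.62 (SE 0.20, adjusted p = 0.030). The lower genes were Angptl4, Lpin1, Nfkbia, and Cebpb, from -0.63 to -0.32.

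On cdHFD 8 of the 22 differed by genotype (9.67% of all genes), 6 higher and 2 lower (median 0.18, and 0.01 over all genes). Igfbp1, the insulin-suppressed binding protein gene, was higher by 1.45 (SE 0.23, adjusted p = 1.7e-05), Pdk4 by 1.03 (SE 0.21, adjusted p = 4.8e-04), and Cdkn1a by 0.50 (SE 0.10, adjusted p = 2.8e-04), and the lower genes were Usp2, at -0.75 (SE 0.15, adjusted p = 3.6e-04), and Tdo2, at -0.38 (SE 0.09, adjusted p = 0.0036), in edgeR's test. The list thus moved in both directions on both diets, as the 8 genes did. By diet, 16 of 22 differed in Hep-Bmal1WT (7 higher, 9 lower), where 55.7% of all genes did. In Hep-Bmal1KO 19 of 22 differed (10 higher, 9 lower), where 62% of all genes did.

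The partners of the receptor were read in the same way. Of 10 chaperone, cofactor, and related receptor genes, 0 differed in level by genotype on NC in edgeR's test (12.5% of all genes), where 2 had an unadjusted p under 0.05. On cdHFD 2 were lower in edgeR's test (4.92% of all genes), Fkbp4 at -0.27 (SE 0.07, adjusted p = 0.0056) and the mineralocorticoid receptor gene Nr3c2 at -0.45 (SE 0.13, adjusted p = 0.022). Rhythms were called for 7 of 10 in Hep-Bmal1WT and 5 in Hep-Bmal1KO on NC (18.7% and 4.34% of all genes). On cdHFD they were called for 5 and 4 (14.3% and 3.81% of all genes). A rhythm that differed by genotype was called for 0 of 10 on either diet (0.386% of all genes on NC and 0.431% on cdHFD). No unadjusted p was under 0.05 in edgeR's test, the lowest being 0.18 for the coactivator gene Ncoa1 on cdHFD, 0.21 for the co-chaperone gene Ptges3 on NC, and 0.24 for the coactivator gene Ncoa2 on NC.

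Of the 5 tested of 6 genes of steroid handling, 4 were lower in Hep-Bmal1KO on cdHFD, where 4.92% of all genes were, among them Serpina6, which encodes the corticosteroid-binding globulin of plasma, at -0.69 (SE 0.13, adjusted p = 1.4e-04), and the efflux pump gene Abcb1a at -0.86 (SE 0.17, adjusted p = 3.7e-04), and the steroid reductase genes Srd5a1 and Akr1d1 at -0.52 and -0.44. On NC, where 5.45% of all genes were lower, 1 of 5 was, Serpina6 at -0.75 (SE 0.26, adjusted p = 0.044). The median log2 difference of the 5 was -0.27 on NC and -0.52 on cdHFD. Rhythms were called for 2 of 5 in Hep-Bmal1WT on each diet (18.7% of all genes on NC and 14.3% on cdHFD). In Hep-Bmal1KO they were called for 0 of 5 on each diet (4.34% and 3.81% of all genes). No difference in rhythm between the genotypes was called (lowest unadjusted p = 0.13 in edgeR's test, for Serpina6 on cdHFD).

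Genes near the other known inputs of Sgk1, Ddit4, and the metallothioneins were read beside them. Of 5 genes listed for zinc handling, 1 had a rhythm that differed by genotype on NC, where 0.386% of all genes did. This was the transporter gene Slc30a10 (edgeR adjusted p = 0.034), with amplitudes of 0.85 (SE 0.12) in Hep-Bmal1WT and 0.23 (SE 0.12) in Hep-Bmal1KO. Slc30a10 was listed by its family name, and whether it handles zinc was not tested. In level, Slc39a4 and Slc30a10 were higher on NC, by 0.43 and 0.42, where 7.08% of all genes were. On cdHFD Slc30a1 and Mtf1, the gene of the zinc-sensing factor that drives the metallothionein genes, were lower, at -0.23 and -0.22, where 4.92% of all genes were. Of 6 genes of the integrated stress response, which also induces Ddit4, 2 were lower in Hep-Bmal1KO on NC in edgeR's test (5.45% of all genes), Asns at -2.51 (SE 0.48, adjusted p = 1.6e-04) and Trib3 at -0.76 (SE 0.26, adjusted p = 0.047). By diet, 5 of 6 were higher on cdHFD in each genotype (median 1.22 in Hep-Bmal1WT and 1.54 in Hep-Bmal1KO). Of all genes, 28.4% and 32.4% were higher on cdHFD in Hep-Bmal1WT and Hep-Bmal1KO. Of 8 acute phase genes, 1 was higher in Hep-Bmal1KO on NC (Fgb, 0.31), where 7.08% of all genes were. On cdHFD 2 were lower in Hep-Bmal1KO (Saa3, -0.78, and Hp, -0.21), where 4.92% of all genes were. A rhythm that differed by genotype was called for 0 of the 6 stress response genes and 0 of the 8 acute phase genes on either diet in edgeR's test, with unadjusted p-values under 0.05 for Sesn2 on NC (0.016) and for Orm2 (0.0032), Saa2 (0.025), and Saa1 (0.032) on cdHFD. By diet 7 of 8 acute phase genes differed in Hep-Bmal1WT (6 higher, 1 lower) and 6 of 8 in Hep-Bmal1KO (5 higher, 1 lower). Of all genes, 55.7% and 62% differed by diet.

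For comparison, 9 of the 10 core clock genes were rhythmic in Hep-Bmal1WT on each diet (18.7% of all genes on NC and 14.3% on cdHFD). In Hep-Bmal1KO 4 were rhythmic on NC and 7 on cdHFD (4.34% and 3.81% of all genes). A rhythm that differed by genotype was called for 1 of 10 on NC (0.386% of all genes), Arntl (edgeR adjusted p = 0.010). It was called for 4 of 10 on cdHFD (0.431% of all genes), Dbp, Nr1d1, Cry1, and Arntl, where the count among the 8 glucocorticoid-responsive genes was 0. In level, 5 of 10 differed on NC (3 higher, 2 lower, where 12.5% of all genes differed), among them Npas2, a paralog of Clock, at 1.93, Cry1 at 1.07, and Nr1d2 at -1.30. On cdHFD 2 of 10 differed (9.67% of all genes), Npas2 at 1.17 and Dbp at -0.71.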

How the data were processed

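Hepatic 3′ mRNA of 96 mice was read by BRB-seq, and the authors deposited raw read counts per gene for every library in 1 table, with 1 file column per mouse. The submitters' processing notes name mm10, STAR, HTSeq, featureCounts, and DESeq2, and whether reads were collapsed by molecular identifier is not given in the sources used here. The 5 entries that name no gene held 22.6 to 39.9% of the reads of a library (median 26.1%) and were left out of library sizes and tests. Groups came from the sample labels, and replicates are separate mice, so p-values measure the spread between mice.

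Counts were scaled by TMM over the 96 libraries and genes with at least 100 counts in all were kept (15548 of 55487). Library totals were 1861740 to 9718615 (median 6412080), and the limit for a library at 0 is 3 counts and covers counting error only. Rhythms (joint cosine and sine terms, period 24 hours), differences in rhythm, and levels (ZT as a factor) were tested with edgeR's quasi-likelihood F test (edgeR 4.0.16, R 4.3.3), with Benjamini-Hochberg adjustment over all genes kept and a threshold of 0.05. Amplitudes, peak times, and their differences came from the CircaCompare model refitted to variance-stabilized counts (DESeq2 1.42.0), with delta-method errors. Differences in peak time were adjusted over the genes rhythmic in both groups. Scripts were tested on simulated data.

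Genes were named by a rule: the 8 genes, the 3 genes of each list with the smallest p for rhythm and for level by genotype over both diets, members of counts of 5 or fewer, and the 5 closest correlates of Fkbp5 and Mt1. G6pc, Pdk4, and the other list genes beyond these were named to account for a count. The 8 genes, the lists, and the tests were chosen with earlier results of these data known. Gene positions came from RefSeq on GRCm38.p6. Alternatives were DESeq2, its size factors, other count filters, sex as a covariate, each sex alone, leaving out each replicate or the 7 libraries against their label, and unadjusted thresholds. Tests of sex within groups and its interactions were added after the data had been seen.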

Additional observations from a re-analysis of the deposited data

Results flagged for a closer look

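Of the 192 sets of 4 livers (8 genes in 24 combinations of genotype, diet, and ZT), 9 held a highest or lowest liver far from the other 3 for the spread of the set, where chance alone flags about 1 in 20. Sgk1 was lowest in replicate 2 of Hep-Bmal1KO on NC at ZT14, with 11.1 CPM, and highest in replicate 1 of Hep-Bmal1WT on NC at ZT6, with 35.6 CPM. Ddit4 was highest in replicate 3 of Hep-Bmal1WT on cdHFD at ZT10, with 12.6 CPM, a library nearer the other genotype than its label. Mt1 was lowest in replicate 4 of Hep-Bmal1KO on cdHFD at ZT22, with 158 CPM. Mt2 was highest in replicate 1 of Hep-Bmal1KO on NC at ZT2 (21.7 CPM), lowest in replicate 2 of Hep-Bmal1KO on NC at ZT14 (1.32 CPM), and highest in replicate 3 of Hep-Bmal1WT on cdHFD at ZT6 (121 CPM) and in replicate 2 at ZT10 (88.9 CPM). Nr3c1 was highest in replicate 4 of Hep-Bmal1WT on cdHFD at ZT10, with 79.2 CPM.

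Between groups, tests of the difference itself passed for 4 results. The log2 genotype difference of Fkbp5 was higher on cdHFD than on NC by 0.71 (SE 0.21, edgeR adjusted p = 0.048). The log2 difference between females and males was smaller on cdHFD than on NC for Fkbp5 (-1.01), Mt1 (-1.50), and Mt2 (-1.75), in edgeR tests added after the data had been seen.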

How the results depend on the processing

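Of 1371 results for single genes under alternatives, 1230 kept their direction and their side of the threshold, 57 no longer passed, 37 newly passed, and 47 changed direction, none of which had passed its test with all libraries. No paired analysis was possible because the replicate numbers follow the order of the samples and pair nothing. Within a combination the males came first in that order, except on cdHFD at ZT2. Leaving out a replicate number therefore also changed the balance of the sexes. Causes were not tested except where fewer samples entered. Depth limited Ddit4 most, which had 0 counts in 1 library.

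The number of the 8 genes called rhythmic in Hep-Bmal1WT on NC was 2 in males alone and 1 to 3 when a replicate was left out. In Hep-Bmal1KO on NC it was 4 with sex as a covariate, 4 at an unadjusted p, 4 in any of 3 rhythm tests, 1 in males alone, and 0 to 1 when a replicate was left out, and on cdHFD it was 1 in females alone. A rhythm that differed by genotype on NC was called for 1 at an unadjusted p. Level by genotype on NC was called for 5 genes with DESeq2, 5 with sex as a covariate, 5 at an unadjusted p, 7 without the libraries against their label, and 1 to 3 when a replicate was left out, and on cdHFD for 4 without those libraries and 4 at an unadjusted p. Level by diet in Hep-Bmal1WT was called for 4 in females alone. Rhythm by diet was called in Hep-Bmal1WT for 1 gene in males alone, 1 in females alone, 1 without the libraries against their label, and 1 to 2 when a replicate was left out. In Hep-Bmal1KO it was called for 2 in males alone, 2 in females alone, 1 without those libraries, and 1 at an unadjusted p. The interaction was called for 0 genes in females alone and 0 to 0 when a replicate was left out (edgeR, 1 with all libraries). Level by sex was called for 5 without a filter, 5 at an unadjusted p, and 0 within either genotype on cdHFD (edgeR).

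In males alone the log2 genotype difference changed sign for Mt1 (0.44) and Mt2 (0.58) on NC and for Fkbp5 (-0.10), Tsc22d3 (-0.022), and Mt2 (0.058) on cdHFD. In males the amplitude difference changed sign on NC for Tsc22d3 (0.026), Mt1 (0.13), Mt2 (0.84), Nr3c1 (-0.051), and Hsd11b1 (-0.0089). On cdHFD it did so for Tsc22d3 (0.047), Sgk1 (0.0039), Mt1 (0.17), Mt2 (0.12), Nr3c1 (0.0013), and Hsd11b1 (0.18), and the peak difference of Fkbp5 was -1.04 h. In females alone the genotype difference of Mt1 on cdHFD was -0.10 and the diet difference of Fkbp5 in Hep-Bmal1WT -0.19. Amplitude differences were 0.28 for Mt1 and 0.17 for Mt2 on NC, and -0.21 for Fkbp5, 0.20 for Sgk1, and 0.085 for Ddit4 on cdHFD. Without the libraries against their label, amplitude differences changed sign for Nr3c1 on NC (-0.047) and for Tsc22d3 (0.019), Ddit4 (0.040), and Hsd11b1 (0.13) on cdHFD.

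When a replicate was left out, the level difference by genotype on cdHFD ranged from -0.10 to 0.14 for Fkbp5 and -0.17 to 0.024 for Mt2, and that by diet in Hep-Bmal1WT from -0.045 to 0.43 for Fkbp5. Amplitude differences on NC ranged from -0.46 to 0.10 for Mt1, -0.14 to 0.17 for Mt2, and -0.037 to 0.041 for Nr3c1. On cdHFD they ranged from -0.054 to 0.10 for Fkbp5, -0.16 to 0.11 for Tsc22d3, -0.097 to 0.014 for Sgk1, -0.27 to 0.19 for Ddit4, -0.37 to 0.012 for Mt2, and -0.16 to 0.11 for Hsd11b1. Peak differences on cdHFD ranged from -0.32 to 1.48 h for Mt1 and -0.62 to 0.37 h for Fkbp5.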
